A study of Mus musculus with 14 samples.

Results

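Lung ILC2s activated for 72 h with IL-33 and IL-25 were compared with lung ILC2s stimulated for 24 h with IL-33, across the 2 experiments of an RNA-seq study of Blimp-1 in ILC2s. The comparison takes 7 of the 14 libraries of the study, 3 controls of the Blimp-1 experiment and 4 IL-33 libraries of the stimulation experiment. Of these, control replicates 1 and 3 and IL-33 replicates 1, 2 and 4 entered the test, and control replicate 2 and IL-33 replicate 3 served as checks for the reasons given below. The control cells came from 3 age-matched female ControlIL7RaCre mice, which carry a Cre driven by the Il7r gene that the B6 mice do not, and were cultured with IL-33 and IL-25 at 20 ng/mL each. The IL-33 cells came from separate female B6 mice and received IL-33 at 20 ng/mL. In each case about 15000 live, lineage-negative, CD90.2+, CD3- cells were sorted from whole lung and plated in complete RPMI. The study methods also list IL-2 for the 72 h culture, which the labels do not, and name it in their general account of ILC2 culture, so whether the 24 h cultures held IL-2 is not certain. The other libraries were 4 of unstimulated B6 cells and 3 of Blimp-1-deficient (Blimp-1IL7RaCre) cells activated as the controls were, and their levels are given as description only. Time in culture, added cytokines, mouse genotype and the experiment itself all changed together between the 2 groups and cannot be told apart, so only large differences that held in all 7 libraries are described as such, and X- and Y-linked genes are left out.

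ILC2s are tissue-resident lymphocytes without antigen receptors that respond to alarmins released by damaged epithelium. IL-33 binds ST2 (Il1rl1) and signals through MyD88 to NF-kB and AP-1, while IL-25 binds a receptor that contains IL-17RB (Il17rb). Activated ILC2s secrete IL-5, which sustains eosinophils, IL-13, which drives airway mucus, and IL-9, which acts on ILC2s themselves and on mast cells.

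Levels are CPM, read counts scaled to library size after TMM normalisation, and values are listed in replicate order, 3 at 72 h and 4 at 24 h. A log2 fold change is the 72 h controls over 24 h IL-33, and its ± is a standard error. The labelled cell type was checked first. Among the 7 libraries, the ILC2 transcription factor Gata3 ranged from 492 to 894.5 CPM, Rora from 284 to 323 CPM, Il1rl1 from 1097 to 2166 CPM, Icos from 235 to 709.6 CPM and Bcl11b from 113 to 214 CPM. Klrg1 ranged from 98.6 to 242 CPM, Il7r from 47.96 to 96.2 CPM and Il17rb, the lowest of these markers, from 1.87 to 24.8 CPM. Of these, Icos fell with a log2 fold change of -0.95 ± 0.09 (adjusted p = 0.000219). Il1rl1, Il17rb and Klrg1 rose and Il7r fell, as given below. Gata3, Rora and Bcl11b did not pass the test. In bulk RNA, a change in the share of cells that express a gene and a change in its RNA per cell cannot be told apart. Summed over 13 T cell markers the level was 184 to 253 CPM at 72 h and 150.5 to 247 CPM at 24 h, over 15 myeloid markers 44.3 to 172 and 45.97 to 148 CPM, and over 9 B cell markers 28.3 to 32.7 and 26.02 to 30.8 CPM. Mast cell and basophil markers summed to at most 3.315 CPM in any of the 7 libraries, and 3 of the 10 had no count in any of them. Of the T cell, B cell, myeloid and mast cell markers tested, 6 of 30 were higher and 3 lower, against 22.6% and 20.3% of all genes tested. None of these markers was large and consistent.

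Depth was 67860879, 13570188 and 76202537 counts in the controls and 10470125 to 32849428 in the IL-33 libraries. Loci that collect ribosomal RNA reads, 7 in all, took 76.8% of control replicate 2 (0.258% to 4.12% of the other 6) and left it 3150795 counts. The log2 ratio of 2 libraries had an SD over genes of 0.404 between controls 1 and 3 and 0.434 to 0.522 among IL-33 replicates 1, 2 and 4, against 1.39 to 1.43 for control replicate 2 and 1.83 to 1.91 for IL-33 replicate 3 with the rest of their group. Between the groups it was 0.964 to 1.00 over the 5 libraries of the test. A count of 0 allows up to 3 counts, which correspond to 0.0417, 0.836 and 0.036 CPM in the controls and to 0.0896, 0.0878, 0.296 and 0.0949 CPM in the IL-33 libraries (counting error only). Markers of epithelial, stromal and endothelial cells summed to 5214 CPM in control replicate 2, against 276 and 453 CPM in controls 1 and 3 and 271 to 529.8 CPM at 24 h. A set of 20 neuron and glia genes summed to 9052 CPM in IL-33 replicate 3 and to 147 to 238 CPM in the other 6 libraries.

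Of 15042 genes tested on known chromosomes other than X and Y, 112 were higher and 49 lower at 72 h by at least 4-fold (a log2 fold change of 2), with an adjusted p below 0.05, at least 5 CPM in the higher group and no overlap among the 7 libraries. They make up 0.745% and 0.326% of the genes tested, and 106 and 43 of them are protein-coding. Without the limits on size, level and overlap, 3394 genes were higher (22.6%) and 3052 lower (20.3%), and the median log2 fold change was -0.0148. Counts for the gene lists below are to be read beside these shares, and counts near them are no result about a list. Higher genes were 52.7% of those past the threshold, against 65.9% (3228 higher and 1669 lower) with limma on log2(TPM + 1), whose tables were normalised separately for each experiment. With all 7 libraries in the fit, 512 genes were higher and 279 lower. All controls lay above all IL-33 libraries in 13.3% of the genes and below them in 15.7%. At the edge of the size limit, Arpin with a log2 fold change of 2.01 was included and Suox with 1.99 was not, and Ccr4 with -2.02 was included and Ccdc184 with -1.98 was not. The 112 higher genes ran up to a log2 fold change of 6.01 and the 49 lower genes down to -6.29. An 8-fold difference was reached by 39 of the higher and 25 of the lower genes. All tests set 2 controls against 3 IL-33 libraries.

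**Figure D1:**
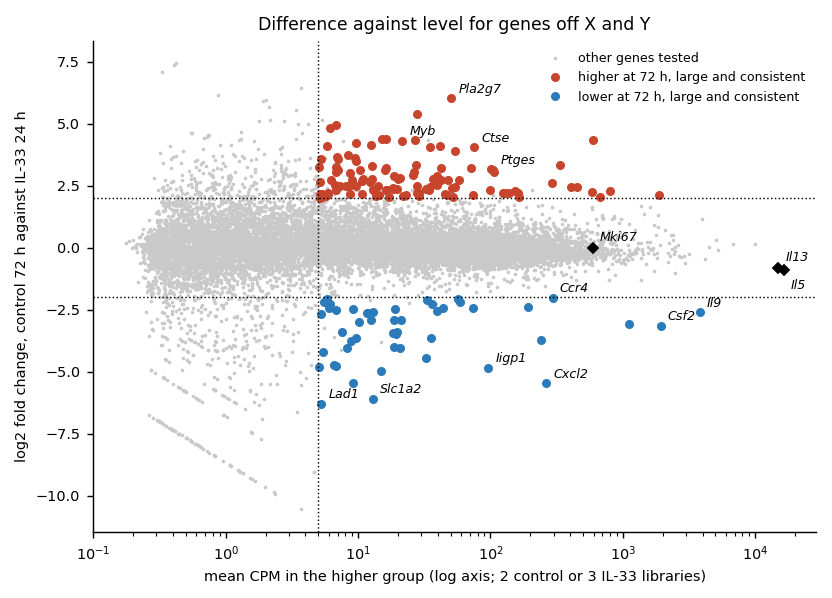
Each point is a gene off X and Y. The x axis gives the mean CPM in the higher group on a log scale and the y axis the log2 fold change of the 72 h controls over 24 h IL-33, with dotted lines at log2 fold changes of 2 and -2 and at 5 CPM. The 112 large and consistent higher genes are red, the 49 lower genes blue, and the markers Il13, Il5 and Mki67 black diamonds near or just below 0.

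Il9, Il13 and Il5 were all lower at 72 h, Il9 by more than 4-fold and the others by less, and Mki67 did not pass the test. Il9 (ENSMUSG00000021538.3, chromosome 13, 56479277 to 56482246, minus strand) had 730.1, 179 and 518 CPM at 72 h and 3121, 3569, 3505 and 4746 CPM at 24 h, and the groups did not overlap. With means of 624 ± 149.8 (SD, n = 2) and 3812 ± 839 CPM (SD, n = 3), Il9 fell by 2.59 on the log2 scale (± 0.22, adjusted p = 0.000146). Il13 had 8262, 4321 and 8393 CPM at 72 h and 13816, 14096, 9289 and 16705 CPM at 24 h, a log2 fold change of -0.82 ± 0.10 (adjusted p = 0.000602). The IL-33 replicate nearest to the controls was replicate 3, and the groups did not overlap. Il5 had 8705, 3691 and 8385 CPM at 72 h and 14802, 15188, 14234 and 18991 CPM at 24 h, a log2 fold change of -0.92 ± 0.12 (adjusted p = 0.000811), again without overlap. Il5 lies over the antisense locus Gm12214, with which it shares 18.5% of its stretches of 75 bases. The proliferation marker Mki67 had 522, 541 and 634 CPM at 72 h and 716, 584, 363 and 479 CPM at 24 h, and its log2 fold change was -0.02 (± 0.16, adjusted p = 0.932). Its groups overlapped. In unstimulated cells Il9 was at 0.0629 CPM in replicate 1 and had no count in the other 3 libraries, which allows up to 0.0761 to 0.113 CPM. Il13 was at 80.3 to 201 CPM, Il5 at 375 to 600.2 CPM and Mki67 at 815 to 1210 CPM. In Blimp-1-deficient cells at 72 h, Il9 stood at 1393 to 1852 CPM, above the controls and below the IL-33 libraries.

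**Figure D2:**
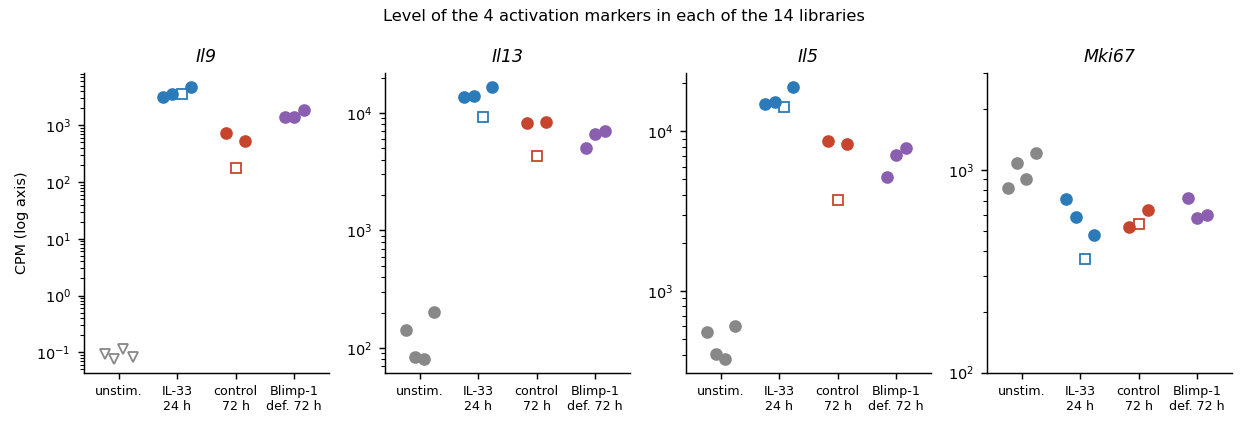
CPM on a log axis of Il9, Il13, Il5 and Mki67 in each of the 14 libraries, by group. Open squares are control replicate 2 and IL-33 replicate 3, and open triangles mark libraries with no more than 3 counts, drawn at the CPM of 3 counts. For Il9, Il13 and Il5 the controls lie below the IL-33 libraries, and for Mki67 the groups overlap.

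Of 17 effector cytokine genes tested, 12 were lower and 4 higher at 72 h, with a median log2 fold change of -1.10. The large and consistent falls were those of Il9, Csf2, Ifng and Il6, and Il10 was the large and consistent rise. Csf2, which encodes GM-CSF, had 234, 73.1 and 198 CPM at 72 h and 1667, 1825, 1583 and 2300 CPM at 24 h, a log2 fold change of -3.14 ± 0.16 (adjusted p = 2.23e-05). Il6, an inflammatory cytokine, had 13.2, 6.13 and 13.8 CPM at 72 h and 69.4, 81.1, 63.5 and 72.1 CPM at 24 h, a log2 fold change of -2.44 ± 0.09 (adjusted p = 5.22e-06). For both genes the highest control lay more than 4-fold below the lowest IL-33 library. Ifng (ENSMUSG00000055170.4, chromosome 10, 118441046 to 118445892, plus strand), the type 1 cytokine, was low throughout, with 0.4304, 0 and 0.156 CPM at 72 h and 4.72, 10.6, 6.31 and 1.11 CPM at 24 h, a log2 fold change of -4.22 ± 0.95 (adjusted p = 0.00956). Its lowest IL-33 library was replicate 4, at 1.11 CPM. Ifng overlaps Gm49751, with 16.2% of its 75-base stretches shared. The immunoregulatory cytokine Il10 went the other way, with 13.3, 19.2 and 8.68 CPM at 72 h and 1.105, 2.399, 0.789 and 1.36 CPM at 24 h, a log2 fold change of 2.77 ± 0.32 (adjusted p = 0.00054). It was at 0.44 CPM or less in unstimulated cells and at 0.364 to 6.22 CPM in Blimp-1-deficient cells. Il4 had 14.9, 13.9 and 16.4 CPM at 72 h and 9.55, 8.48, 10.45 and 11.8 CPM at 24 h and rose by 0.67 on the log2 scale (± 0.15, adjusted p = 0.00904), short of the size limit. Without control replicate 3, Il4 (0.60) and Ifng (-3.64) lost the call and 2 genes were higher. With all 7 libraries in the fit, 7 of the 17 genes were lower and 1 higher.

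Chemokine ligands that attract neutrophils were among the genes that fell most. Of 25 chemokine genes tested, 10 were lower and 3 higher (median log2 fold change -0.76), and 5 of the falls were large and consistent, those of Cxcl1, Cxcl2, Cxcl3, Cxcl5 and Cxcl10. Cxcl2 had 7.25, 1.12 and 4.56 CPM at 72 h and 225, 227, 246 and 335 CPM at 24 h, a log2 fold change of -5.46 ± 0.29 (adjusted p = 2.43e-05). Cxcl1 (ENSMUSG00000029380.11, chromosome 5, 90891241 to 90893115, plus strand) had 0.194, 0 and 0.3003 CPM at 72 h and 8.66, 4.71, 6.21 and 7.24 CPM at 24 h, a log2 fold change of -4.75 ± 0.37 (adjusted p = 0.000108). Cxcl3 had 148, 64.97 and 115 CPM at 72 h and 1033, 995, 939 and 1297 CPM at 24 h, a log2 fold change of -3.06 ± 0.16 (adjusted p = 2.43e-05). Cxcl5, another CXCR2 ligand, had 2.82, 1.39 and 2.91 CPM at 72 h and 46.01, 15.97, 29.3 and 45.02 CPM at 24 h (log2 fold change -3.62, adjusted p = 0.000815). For all 4 of these neutrophil chemokines the highest control lay below the lowest IL-33 library by more than 5-fold. Cxcl10, a CXCR3 ligand that interferons induce, had 9.15, 0.558 and 4.24 CPM at 72 h and 43.4, 58.7, 45.8 and 16.1 CPM at 24 h (log2 fold change -2.55, adjusted p = 0.00815), and IL-33 replicate 4 was the lowest of its group. Its log2 fold change without control replicate 3 was -2.09, which did not pass the test. Among the other chemokines, Ccl2 had 14.8, 6.13 and 12.5 CPM at 72 h and 31.8, 21.4, 42.1 and 32 CPM at 24 h and fell by 1.04 on the log2 scale. Ccl1 (0.153, 0 and 0.0961 CPM at 72 h and 0.687, 0.848, 0.197 and 1.01 CPM at 24 h), Ccl3 (2.12, 0 and 3.999 CPM at 72 h and 0.627, 0.761, 1.38 and 0.727 CPM at 24 h) and Ccl4 (0.972, 1.12 and 1.37 CPM at 72 h and 0.0896, 0.176, 0 and 0 CPM at 24 h) passed the test with log2 fold changes of -2.74, 2.14 and 3.68, at levels under 5 CPM. In unstimulated cells Cxcl2 was at 1.603 to 3.46 CPM and Cxcl3 at 49.7 to 71.4 CPM.

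Cxcl1, Cxcl2 and Cxcl3 lie within one cluster on chromosome 5, and their promoters are shown because they fell together and share a motif. RefSeq promoters (GRCm38.p6) were searched on both strands for the kappaB motif (GGG and TTTCC with 2 bases between), which is in 1.41% of 32841 promoters of 27018 genes. It was found in 3 of the 4 promoters of large and consistent chemokine genes in the table (2 matches in Cxcl1 and Cxcl2, 1 in Cxcl3, none in Cxcl10). The 250 bases before each start follow, 5′ to 3′ on the strand of the gene, with the kappaB matches in capitals. The sequences are chr5:90890995-90891244 (plus strand), chr5:90903649-90903898 (plus strand) and chr5:90785851-90786100 (plus strand).
Cxcl1: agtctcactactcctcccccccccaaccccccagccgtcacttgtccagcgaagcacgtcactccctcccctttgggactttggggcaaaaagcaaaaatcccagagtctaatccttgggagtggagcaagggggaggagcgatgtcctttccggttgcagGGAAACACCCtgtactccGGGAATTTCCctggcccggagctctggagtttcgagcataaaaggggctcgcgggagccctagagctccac
Cxcl2: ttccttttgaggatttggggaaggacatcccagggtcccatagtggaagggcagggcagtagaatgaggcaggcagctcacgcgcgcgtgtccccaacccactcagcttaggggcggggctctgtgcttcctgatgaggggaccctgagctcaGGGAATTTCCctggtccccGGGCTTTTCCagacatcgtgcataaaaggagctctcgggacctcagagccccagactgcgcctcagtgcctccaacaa
Cxcl3: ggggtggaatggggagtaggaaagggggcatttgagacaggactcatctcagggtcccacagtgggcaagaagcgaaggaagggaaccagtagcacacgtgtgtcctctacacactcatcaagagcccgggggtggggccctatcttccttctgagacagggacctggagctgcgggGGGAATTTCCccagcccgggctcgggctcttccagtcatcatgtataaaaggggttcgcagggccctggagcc
The Il9 promoter (chr13:56482258-56482507, minus strand) holds 1 kappaB match and 1 AP-1 match (TGA and TCA with 1 base between, in 6.75% of all promoters), both in capitals here.
Il9: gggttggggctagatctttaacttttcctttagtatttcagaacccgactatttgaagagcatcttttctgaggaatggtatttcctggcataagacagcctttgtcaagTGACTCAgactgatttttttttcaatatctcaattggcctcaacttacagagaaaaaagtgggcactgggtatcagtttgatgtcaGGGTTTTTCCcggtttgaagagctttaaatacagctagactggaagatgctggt
Of the promoters found for large and consistent genes (117 of 161 genes), the kappaB motif was in 17.1% of the 41 promoters of lower genes and in 0.926% of the 108 promoters of higher genes. A match is a description of the sequence and not evidence of binding.

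Of 26 genes for NF-kB subunits and their feedback inhibitors, 16 were lower and 1 higher (median log2 fold change -0.66), and none was large and consistent. Tnfaip3, which encodes the inhibitor A20, had 84, 47.96 and 90.5 CPM at 72 h and 274, 279, 166 and 225 CPM at 24 h, a log2 fold change of -1.55 ± 0.11 (adjusted p = 7.35e-05). Rel, a subunit, had 36.3, 37.9 and 32.99 CPM at 72 h and 81.8, 81.4, 67.6 and 89.8 CPM at 24 h (log2 fold change -1.27, adjusted p = 4.27e-05). Nfkbia, the inhibitor IkBa, had 132, 74.7 and 120.3 CPM at 72 h and 186, 194, 143 and 223 CPM at 24 h (log2 fold change -0.66, adjusted p = 0.00125). Nfkb1 had 453, 332 and 449.7 CPM at 72 h and 621, 609, 447 and 639 CPM at 24 h (log2 fold change -0.45, adjusted p = 0.00105), and here IL-33 replicate 3 fell among the controls. Leaving out any 1 of the 5 libraries gave 16 or 17 lower genes, and all 7 libraries together gave 8.

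Interferon-stimulated genes were lower at 72 h against 3 of the 4 IL-33 libraries. Of 48 tested, 21 were lower and 1 was higher, with a median log2 fold change of -1.27, and 6 were large and consistent: Iigp1, Tgtp1, Gbp2, Tgtp2, Gbp5 and Oas3. The 50 genes of the list summed to 1582, 1223 and 1497 CPM at 72 h and to 4151, 4031, 3350 and 1363 CPM at 24 h, so that IL-33 replicate 4 lay within the range of the controls. In 45 of the 48 genes replicate 4 was the lowest of the 4 IL-33 libraries. Without it 46 of 49 were lower, while leaving out control replicate 1 or 3 or IL-33 replicate 1 or 2 left 3 to 9, and all 7 libraries gave 3. Without control replicate 3 none of the 6 large and consistent genes passed the test, at log2 fold changes from -4.48 (Iigp1) to -2.01 (Oas3). Why replicate 4 differs was not tested.

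Iigp1, an immunity-related GTPase, had 4.25, 4.18 and 2.46 CPM at 72 h and 162, 117, 170.4 and 9.77 CPM at 24 h, a log2 fold change of -4.83 ± 1.08 (adjusted p = 0.00956). Gbp2, a guanylate-binding protein, had 21.9, 19.2 and 14.7 CPM at 72 h and 371, 309.7, 377 and 44.7 CPM at 24 h, a log2 fold change of -3.71 ± 0.82 (adjusted p = 0.009). Tgtp1 (ENSMUSG00000078922.9, chromosome 11, 48985327 to 48994172, minus strand) had 1.71, 1.39 and 0.805 CPM at 72 h and 32.2, 27.4, 29.1 and 2.91 CPM at 24 h (log2 fold change -4.05, adjusted p = 0.0114), and its neighbour Tgtp2 had 9.18, 7.25 and 6.79 CPM at 72 h and 63.9, 56.1, 66.7 and 10.9 CPM at 24 h (log2 fold change -2.44, adjusted p = 0.0195). Of their 75-base stretches 77.2% and 81.4% also lie elsewhere, above all in each other, so their counts are not independent. In each of these 4 genes the lowest IL-33 library was replicate 4, more than 5-fold below the next lowest, and it still lay above every control. Gbp5 (13.98, 3.62 and 11.6 CPM at 72 h and 84.05, 78.3, 72.5 and 14.04 CPM at 24 h) and the antiviral sensor Oas3 (8.16, 8.09 and 6.94 CPM at 72 h and 36.7, 53.7, 24.7 and 9.36 CPM at 24 h) had log2 fold changes of -2.19 and -2.12. Neither passed the test without control replicate 1 (-2.32 and -2.24), IL-33 replicate 1 (-1.84 and -2.05) or IL-33 replicate 2 (-1.91 and -1.57), nor did Tgtp2 without control replicate 1 (-2.66) or IL-33 replicate 2 (-2.20). Gbp10 (0.264, 0 and 0.0961 CPM at 72 h and 6.03, 8.02, 7.001 and 1.04 CPM at 24 h, log2 fold change -4.80) shares 77.8% of its stretches with Gm43302, and Ifi208, a DNA-sensor family gene, had 0.791, 1.39 and 0.721 CPM at 72 h and 9.61, 17.1, 9.96 and 2.09 CPM at 24 h (log2 fold change -3.65, adjusted p = 0.00822, and -3.58 without control replicate 3, which did not pass). The antiviral gene Ifit1 had 1.33, 3.62 and 0.769 CPM at 72 h and 16.8, 26.9, 9.96 and 0.949 CPM at 24 h (log2 fold change -3.82, adjusted p = 0.0276) and overlapped between the groups. It did not pass the test when any 1 of control replicates 1 and 3 and IL-33 replicates 1 and 2 was left out, with log2 fold changes from -4.25 to -3.05. Isg15 (log2 fold change -2.13, adjusted p = 0.103) and Irf7 (log2 fold change -1.61, adjusted p = 0.11) did not pass the test. In unstimulated cells Gbp2 was at 31.6 to 104 CPM and Tgtp1 at 6.93 to 27.2 CPM, and in Blimp-1-deficient cells they were at 55.5 to 105 and 2.65 to 5.57 CPM.

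The promoters of Gbp2 and Tgtp1 are shown as examples of interferon-stimulated genes that fell. The interferon response motif (GAAA and GAAA with 2 bases between), searched on both strands, is in 2.98% of all promoters and in all 5 that the RefSeq table holds for the 6 large and consistent genes of the list. These genes were listed as interferon-stimulated, so that share says nothing about the difference between 72 h and 24 h. The motif was in 22% of the promoters of all large and consistent lower genes (9 of 41, with those 5 among the 9) and in 4.63% of those of higher genes. The match is in capitals, in chr3:142620413-142620662 (plus strand) and chr11:48992247-48992496 (minus strand).
Gbp2: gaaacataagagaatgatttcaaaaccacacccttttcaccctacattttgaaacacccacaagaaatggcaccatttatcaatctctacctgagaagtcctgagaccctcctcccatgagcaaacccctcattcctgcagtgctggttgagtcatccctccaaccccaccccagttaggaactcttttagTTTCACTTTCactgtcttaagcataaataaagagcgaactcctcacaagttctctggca
Tgtp1: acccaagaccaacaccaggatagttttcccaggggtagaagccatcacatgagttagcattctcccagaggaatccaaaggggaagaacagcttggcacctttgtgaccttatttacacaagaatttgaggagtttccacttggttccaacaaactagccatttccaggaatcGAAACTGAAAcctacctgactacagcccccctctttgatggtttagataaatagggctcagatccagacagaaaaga

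**Figure D3:**
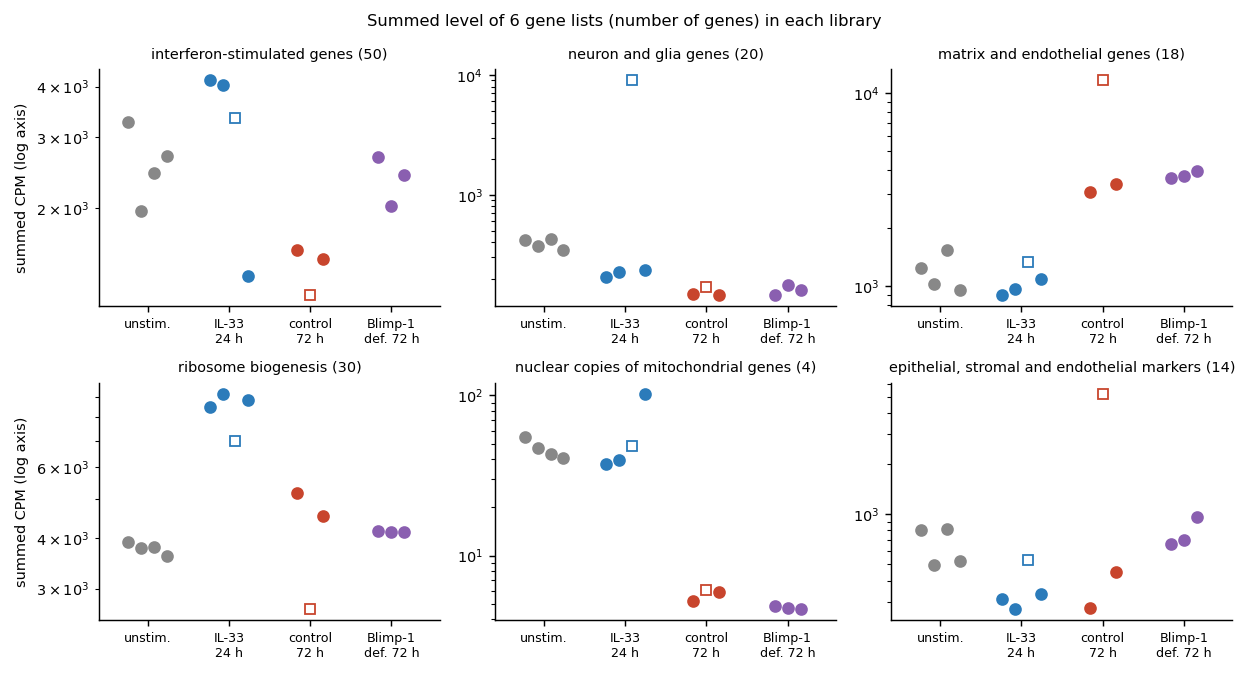
Summed CPM (log axes) of 6 gene lists in each of the 14 libraries, with the number of genes in the panel titles. Open squares are control replicate 2 and IL-33 replicate 3. IL-33 replicate 4 lies with the controls for interferon-stimulated genes, IL-33 replicate 3 stands apart for neuron and glia genes, and control replicate 2 for matrix and epithelial genes, while the ribosome biogenesis sums of the 3 controls lie below those of the 4 IL-33 libraries.

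Ribosome biogenesis genes were lower at 72 h without exception among those listed: 30 of 30 passed the test, with log2 fold changes from -1.13 to -0.385 (median -0.75). None reached the size limit. Ncl, the nucleolar protein nucleolin, had 1260, 444 and 1157 CPM at 72 h and 2395, 2582, 2046 and 2448 CPM at 24 h, a log2 fold change of -1.02 ± 0.07 (adjusted p = 7.80e-05). Npm1 (968, 387 and 807 CPM at 72 h and 1602, 1793, 1604 and 1726 CPM at 24 h), Fbl (85.3, 44.9 and 81.4 CPM at 72 h and 138, 147, 92 and 139.6 CPM at 24 h) and Nop56 (142, 81.4 and 135 CPM at 72 h and 250.4, 254, 197 and 260.2 CPM at 24 h), all nucleolar ribosome assembly factors, had log2 fold changes of -0.93, -0.75 and -0.86. Control replicate 2 was the lowest library for each of the 4. The sum of the 30 genes was 5191, 2670 and 4542 CPM at 72 h and 8488, 9135, 6988 and 8841 CPM at 24 h, against 3609 to 3906 CPM in unstimulated cells. Leaving out any 1 of the 5 libraries left 30 lower genes, and all 7 libraries together gave 4.

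Of 36 mitotic genes, 17 were higher and none lower (median 0.26), and of 30 S phase genes, 18 were lower and none higher (median -0.24). With all 7 libraries none of the 66 passed the test, and the S phase count was 9 to 11 without control replicate 3, IL-33 replicate 1 or IL-33 replicate 2. Top2a had 715, 444 and 706 CPM at 72 h and 894, 850.3, 661 and 687 CPM at 24 h (log2 fold change -0.17, adjusted p = 0.242). The mitotic cyclins Ccnb1 (130.4, 73.6 and 115 CPM at 72 h and 107, 100, 82.7 and 91.03 CPM at 24 h) and Ccnb2 (93.1, 61.3 and 91.4 CPM at 72 h and 61.5, 57.2, 42.1 and 55.2 CPM at 24 h) rose by 0.32 and 0.69 on the log2 scale, Ccnb1 not past the test without control replicate 1 (0.23) or IL-33 replicate 2 (0.35). Of 29 regulators of G1 and cell cycle exit, 15 were higher and 5 lower (median 0.44). Mycl, a MYC family transcription factor, had 10.6, 7.53 and 7.54 CPM at 72 h and 1.22, 1.23, 1.08 and 1.71 CPM at 24 h, a log2 fold change of 2.72 ± 0.23 (adjusted p = 0.00014). It stood at 0.1097 to 0.283 CPM in unstimulated cells. Cdkn2a, the locus of the inhibitors p16 and p19Arf, had 3.48, 9.48 and 5.49 CPM at 72 h and 1.07, 0.936, 1.68 and 1.202 CPM at 24 h (log2 fold change 2.09, adjusted p = 0.000701), under 5 CPM in the mean of controls 1 and 3. Cdkn1a (p21) fell by 0.64 on the log2 scale (374, 286 and 259 CPM at 72 h and 449.9, 512, 343 and 536 CPM at 24 h), Cdkn1b did not pass the test (adjusted p = 0.481), and Cdkn1c, which passed it, was at 0.269, 0.176, 2.27 and 0.348 CPM at 24 h and at 0.541, 0.279 and 0.685 CPM at 72 h, with IL-33 replicate 3 above all controls. Its log2 fold change of 1.23 did not pass the test when any 1 of control replicates 1 and 3 and IL-33 replicates 1 and 2 was left out (1.03 to 1.39).

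Among large and consistent protein-coding genes, the largest rise was that of Pla2g7 (ENSMUSG00000023913.17, chromosome 17, 43568098 to 43612201, plus strand), which encodes a secreted phospholipase that cleaves platelet-activating factor. It had 44.6, 17.3 and 56.2 CPM at 72 h and 0.687, 0.497, 0.394 and 1.202 CPM at 24 h, a log2 fold change of 6.01 ± 0.25 (adjusted p = 8.54e-06). In Blimp-1-deficient cells it was at 37.6 to 65.7 CPM and in unstimulated cells at 0.137 to 0.508 CPM. Ifitm1, an interferon-induced membrane protein outside the list above, had 17.7, 17.8 and 38.5 CPM at 72 h and 1.31, 0.293, 3.55 and 0.443 CPM at 24 h, a log2 fold change of 5.37 ± 0.51 (adjusted p = 0.000251). The epithelial-type transcription factors Ehf (14.9, 6.69 and 15.3 CPM at 72 h and 0.687, 0.556, 0 and 0.949 CPM at 24 h) and Tfcp2l1 (4.86, 8.92 and 7.47 CPM at 72 h and 0.269, 0.263, 3.06 and 0.126 CPM at 24 h) had log2 fold changes of 4.39 and 4.80. Kitl, the ligand of KIT and a mast cell growth factor, had 35.3, 17.6 and 34.6 CPM at 72 h and 2.15, 1.99, 12.5 and 2.15 CPM at 24 h, a log2 fold change of 4.08 ± 0.10 (adjusted p = 1.73e-06). It was at 3.83 to 5.06 CPM in unstimulated and 4.55 to 9.17 CPM in Blimp-1-deficient cells. Sncg, a synuclein, had 7.23, 4.74 and 6.43 CPM at 72 h and 0.209, 0.263, 2.96 and 0.1897 CPM at 24 h (log2 fold change 4.95, adjusted p = 1.41e-05). For Kitl, Sncg and Tfcp2l1, IL-33 replicate 3 was above the other 3 IL-33 libraries and below every control. Across the alternatives listed below, the call was lost in 3 of 20 for Kitl, 3 of 20 for Sncg and 3 of 18 for Tfcp2l1. Ly6c2, a surface marker of many leukocytes, had 7.04, 9.76 and 4.59 CPM at 72 h and 0.179, 0.497, 0.592 and 0.348 CPM at 24 h (log2 fold change 4.09, adjusted p = 0.000174) and was at 0.235 to 0.646 CPM in Blimp-1-deficient cells.

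The casein genes, known for milk, rose in all controls. Csn1s1 had 615, 438 and 579 CPM at 72 h and 25.2, 32.2, 20.9 and 32.1 CPM at 24 h, a log2 fold change of 4.34 ± 0.12 (adjusted p = 2.17e-06). Csn2 had 45.04, 51.9 and 37.5 CPM at 72 h and 2.75, 2.08, 3.65 and 2.498 CPM at 24 h, a log2 fold change of 4.10 ± 0.14 (adjusted p = 3.44e-06). Both had no count in unstimulated replicates 1 to 3, which allows up to 0.0761 to 0.113 CPM. In replicate 4 they were at 0.11 and 0.0823 CPM. In Blimp-1-deficient cells they were at 149.6 to 275 and 32.99 to 37.4 CPM. The genes lie next to each other on chromosome 5, and their promoters are shown because STAT5, which cytokine receptors activate, is known to act on casein promoters. The STAT5 motif (TTC and GAA with 3 bases between, identical on both strands) is in 7.02% of all promoters, in 10.2% of those of large and consistent higher genes and in 17.1% of those of lower genes. Each casein promoter held 1 match, in capitals, in chr5:87665958-87666207 (plus strand) and chr5:87699426-87699675 (minus strand).
Csn1s1: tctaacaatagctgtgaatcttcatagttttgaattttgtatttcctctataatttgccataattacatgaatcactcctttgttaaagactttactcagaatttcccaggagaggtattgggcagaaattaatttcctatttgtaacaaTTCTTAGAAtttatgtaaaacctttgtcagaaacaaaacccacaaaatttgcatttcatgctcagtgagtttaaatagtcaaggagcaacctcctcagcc
Csn2: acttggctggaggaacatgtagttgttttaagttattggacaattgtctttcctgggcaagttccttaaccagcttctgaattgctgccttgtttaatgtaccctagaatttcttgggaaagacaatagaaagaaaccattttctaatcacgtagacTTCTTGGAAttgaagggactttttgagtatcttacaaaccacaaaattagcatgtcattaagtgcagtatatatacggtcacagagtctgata

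Ctse, the protease cathepsin E, had 84.2, 50.7 and 65.3 CPM at 72 h and 4.42, 4.48, 5.82 and 4.77 CPM at 24 h, a log2 fold change of 4.05 ± 0.12 (adjusted p = 2.65e-06). It stood at 4.101 to 4.52 CPM in Blimp-1-deficient cells. Emilin2, a matrix glycoprotein, had 41.1, 34.9 and 67.2 CPM at 72 h and 3.61, 3.48, 4.24 and 3.95 CPM at 24 h, a log2 fold change of 3.90 ± 0.21 (adjusted p = 2.44e-05). Atp12a, a proton pump subunit, had 21.3, 2.23 and 3.56 CPM at 72 h and 0.567, 0.878, 0.493 and 0.696 CPM at 24 h (log2 fold change 4.13, adjusted p = 0.00291), with control 1 well above the other controls. Its log2 fold change ran from 2.33 to 4.91 across the alternatives. Grem1, a BMP antagonist, had 6.87, 67.8 and 9.81 CPM at 72 h and 1.04, 0.556, 1.38 and 0.285 CPM at 24 h (log2 fold change 3.74, adjusted p = 0.00038), and Spp1, osteopontin, had 9.93, 364 and 43.5 CPM at 72 h and 1.49, 1.61, 7.59 and 0.885 CPM at 24 h (log2 fold change 4.34, adjusted p = 0.00116). For Grem1 and Spp1 the highest library was control replicate 2. Across the alternatives the log2 fold change ran from 2.39 to 5.4 for Grem1 and from 2.91 to 6.67 for Spp1.

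**Figure D4:**
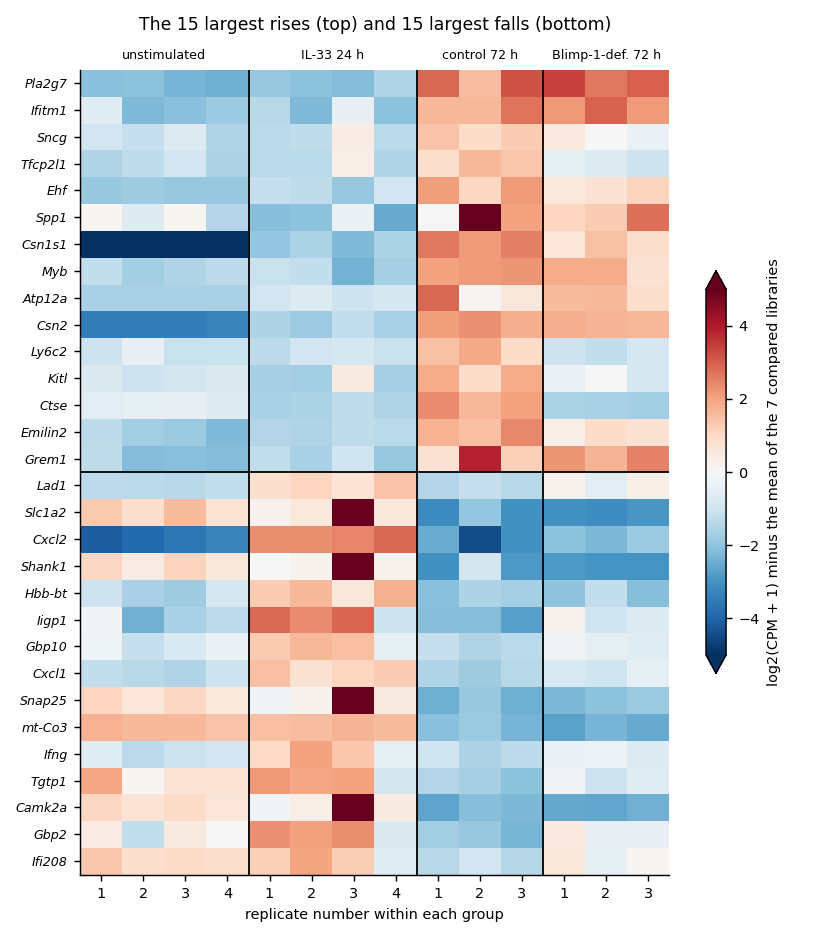
The 15 largest rises and 15 largest falls among protein-coding large and consistent genes, in all 14 libraries. Colour gives log2(CPM + 1) minus the mean of the 7 compared libraries, and colours stop at 5 and -5. Within the 7 compared libraries the controls are above the IL-33 libraries in the upper block and below them in the lower block, and the dark cells of IL-33 replicate 3 are Slc1a2, Shank1, Snap25 and Camk2a.

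A list of 18 matrix and endothelial genes was assembled once the values had been seen, so nothing is read from its counts. In this list 14 genes were higher at 72 h and 1 lower, 10 of the 14 large and consistent (6 without control replicate 1, 4 when scaled by library size alone and 3 with all 7 libraries). Among the controls, replicate 2 was the highest in Fn1, Fbln2, Nid2 and Cavin2 and the lowest in Col18a1, Emcn, Selp, Aqp1, Procr and Loxl2. Fn1, fibronectin, had 631, 4208 and 540.4 CPM at 72 h and 120.3, 146, 255 and 107 CPM at 24 h, a log2 fold change of 2.25 ± 0.13 (adjusted p = 3.64e-05). Col18a1, a basement membrane collagen, had 1708, 947 and 2016 CPM at 72 h and 376, 400.3, 219 and 520 CPM at 24 h, a log2 fold change of 2.12 ± 0.14 (adjusted p = 6.34e-05). Fbln2, a fibulin of the elastic matrix, had 22.8, 604 and 42.1 CPM at 72 h and 7.11, 4.91, 7.99 and 6.86 CPM at 24 h (log2 fold change 2.39, adjusted p = 0.000444). The endothelial genes Emcn (65.2, 15.9 and 36.4 CPM at 72 h and 6.96, 13.7, 13.5 and 8.19 CPM at 24 h) and Selp (55.6, 15.9 and 35.2 CPM at 72 h and 8.21, 13.4, 15.5 and 9.39 CPM at 24 h) had log2 fold changes of 2.41 and 2.15. Aqp1, Procr, Nid2, Loxl2 and Cavin2 had log2 fold changes of 2.37, 2.12, 2.49, 2.11 and 2.17. The 18 genes summed to 3086, 11640 and 3378 CPM at 72 h, 901 to 1334 CPM at 24 h, 962 to 1547 CPM in unstimulated and 3645 to 3931 CPM in Blimp-1-deficient cells. The share of other cells in these sums was not tested. In the list of 14 epithelial, stromal and endothelial markers, 4 of 12 tested were higher and 2 lower.

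Of 38 cytokine and alarmin receptors tested, 17 were higher and 7 lower at 72 h (median log2 fold change 0.09), and 3 of the rises were large and consistent (1 when scaled by library size alone). Csf2rb (ENSMUSG00000071713.6, chromosome 15, 78325752 to 78353847, plus strand), the shared beta chain of the IL-3, IL-5 and GM-CSF receptors, had 411, 437 and 403 CPM at 72 h and 84.1, 69.3, 40.03 and 73.3 CPM at 24 h, a log2 fold change of 2.45 ± 0.09 (adjusted p = 4.47e-06). A share of 7.15% of its 75-base stretches is common to other genes, above all Csf2rb2. Il17rb, the IL-25 receptor chain, had 11.7, 7.81 and 24.8 CPM at 72 h and 4.21, 2.55, 1.87 and 3.67 CPM at 24 h, a log2 fold change of 2.41 ± 0.33 (adjusted p = 0.00107). Control 3 was the highest control, and across the alternatives this log2 fold change ran from 1.77, under the size limit, to 2.86. Il17rb was at 19.6 to 31.2 CPM in unstimulated and 24.98 to 31.1 CPM in Blimp-1-deficient cells, so that the IL-33 libraries were the lowest of the 4 groups. Il1r2, the IL-1 decoy receptor, had 17.8, 14.2 and 50.5 CPM at 72 h and 7.37, 5.997, 6.902 and 7.11 CPM at 24 h (log2 fold change 2.34, adjusted p = 0.00225). Control 3 was well above the other controls, and across the alternatives the log2 fold change of Il1r2 ran from 1.4, under the size limit, to 2.91. The IL-33 receptor Il1rl1 had 2166, 1795 and 1968 CPM at 72 h and 1339, 1159, 1097 and 1323 CPM at 24 h and rose by 0.72 on the log2 scale (± 0.08, adjusted p = 0.000577), against 2101 to 2236 CPM in unstimulated cells. Without control replicate 3, 4 receptors were lower. Il7r (74.8, 47.96 and 68.6 CPM at 72 h and 88.1, 83.7, 79.1 and 96.2 CPM at 24 h) fell by 0.30 on the log2 scale (-0.24 without control replicate 3, which did not pass), and Il2ra (2682, 2170 and 2301 CPM at 72 h and 2318, 2469, 1821 and 2645 CPM at 24 h) did not differ by the test (adjusted p = 0.844).

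Of 23 genes tested that identify ILC2s, 9 were higher, 2 of them large and consistent, and 5 lower, with log2 fold changes from -1.59 to 2.41 (median 0.12, and 3 lower without control replicate 3 or IL-33 replicate 2), and their sum was 9787 to 11750 CPM at 72 h and 8605 to 10190 CPM at 24 h. Scaled by library size alone, none of these rises was large and consistent. Klrg1, an activation-linked receptor, had 242, 151 and 236 CPM at 72 h and 128, 118, 98.6 and 134 CPM at 24 h (log2 fold change 0.93, adjusted p = 9.95e-05). Of 16 genes of arginine and polyamine metabolism, 5 were higher (3 without control replicate 1) and 4 lower, against 22.6% and 20.3% of all genes tested. Odc1, the polyamine synthesis enzyme ornithine decarboxylase, fell with 588, 195 and 508 CPM at 72 h and 1315, 1239, 1081 and 1522 CPM at 24 h (log2 fold change -1.29, adjusted p = 0.000148), and Ass1 rose with 125, 95.1 and 101 CPM at 72 h and 61.4, 62.8, 42.99 and 57.5 CPM at 24 h (log2 fold change 0.92, adjusted p = 0.000324).

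Of 66 lymphocyte transcription factors tested, 28 were higher and 18 lower (median 0.17), with Myb as the large and consistent member. Myb (ENSMUSG00000019982.15, chromosome 10, 21124935 to 21160984, minus strand), a regulator of progenitors, had 20.1, 22.03 and 23.2 CPM at 72 h and 1.403, 1.23, 0 and 0.632 CPM at 24 h, a log2 fold change of 4.32 ± 0.25 (adjusted p = 3.49e-05). It was at 0.609 to 1.23 CPM in unstimulated cells and 7.79 to 17.9 CPM in Blimp-1-deficient cells. Prdm1, which encodes Blimp-1, had 86.6, 106 and 84.1 CPM at 72 h and 64.8, 69.4, 34.5 and 47.8 CPM at 24 h and rose by 0.51 on the log2 scale (± 0.14, adjusted p = 0.0216), with IL-33 replicate 3 lowest. Its log2 fold change did not pass the test without control replicate 1 (0.49) or 3 (0.53). Tbx21, which encodes T-bet, was at 1.32, 1.12 and 0.685 CPM at 72 h and 2.598, 2.19, 4.44 and 0.601 CPM at 24 h and did not pass the test (adjusted p = 0.27).

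Among 34 migration and residency genes, 17 were higher and 10 lower (median 0.38, and 6 lower without control replicate 3 or IL-33 replicate 2). Ccr7, the receptor that guides cells to lymph nodes, had 32.7, 20.1 and 21.8 CPM at 72 h and 3.13, 2.75, 4.04 and 2.28 CPM at 24 h, a log2 fold change of 3.34 ± 0.20 (adjusted p = 4.40e-05). Ccr1 had 165, 105 and 155 CPM at 72 h and 35.9, 32.9, 30.9 and 35.2 CPM at 24 h, a log2 fold change of 2.22 ± 0.06 (adjusted p = 2.57e-06). Ccr4, a receptor of type 2 lymphocytes, had 73.7, 45.2 and 70.01 CPM at 72 h and 286, 289, 229 and 309 CPM at 24 h, a log2 fold change of -2.02 ± 0.07 (adjusted p = 4.22e-06). Between the control and IL-33 ranges of Ccr4 lay the Blimp-1-deficient libraries, at 135 to 143 CPM. The egress genes S1pr1 (49.97, 23.98 and 37.9 CPM at 72 h and 15.4, 20.2, 62.4 and 17.96 CPM at 24 h) and Klf2 (4.93, 10.9 and 5.897 CPM at 72 h and 1.97, 2.05, 1.38 and 2.498 CPM at 24 h) rose by 1.32 and 1.34 on the log2 scale, S1pr1 with IL-33 replicate 3 above all controls. The residency markers Cd69 (48.5, 49.4 and 53.2 CPM at 72 h and 82.5, 75.6, 73.5 and 72.2 CPM at 24 h) and Cxcr6 (551, 396 and 522 CPM at 72 h and 729, 697, 662 and 766 CPM at 24 h) fell by 0.58 and 0.43.

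Among 32 checkpoint and costimulatory receptors, 12 were higher and 10 lower, against 22.6% and 20.3% of all genes tested. Tnfrsf8, which encodes CD30, had 466, 479 and 433 CPM at 72 h and 87.5, 84.2, 41.3 and 76.7 CPM at 24 h, a log2 fold change of 2.46 ± 0.08 (adjusted p = 2.65e-06). It stood at 0.635 to 3.24 CPM in unstimulated cells. Ctla4 had 7.65, 8.36 and 9.79 CPM at 72 h and 3.67, 1.23, 2.37 and 0.9801 CPM at 24 h (log2 fold change 2.17, adjusted p = 0.00826). Tigit fell with 34.3, 17.3 and 28.7 CPM at 72 h and 64.6, 57.98, 55.4 and 60.6 CPM at 24 h (log2 fold change -0.94, adjusted p = 0.000297), and Pdcd1, which encodes PD-1, was at 95.7, 36.2 and 90.9 CPM at 72 h and 98.02, 95.3, 82.9 and 134 CPM at 24 h (adjusted p = 0.272). Lag3 passed the test (log2 fold change 3.17, adjusted p = 0.00226) at no more than 1.07 CPM in any library.

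In a mixed list of granzymes and killing machinery, 11 of 17 genes tested were higher at 72 h and 2 lower (median 1.14). Gzmb, granzyme B, had 156, 75.3 and 100.3 CPM at 72 h and 21.3, 33.1, 40.5 and 29.9 CPM at 24 h, a log2 fold change of 2.20 ± 0.22 (adjusted p = 0.000287). It was at 39.9 to 91.7 CPM in unstimulated cells and 18.8 to 71.9 CPM in Blimp-1-deficient cells. The list also holds the protease gene Ctse, given above, which had its highest log2 fold change, 4.05. Nkg7, a cytotoxic granule protein, had 8.4, 6.69 and 5.76 CPM at 72 h and 1.02, 0.644, 0.887 and 0.7904 CPM at 24 h, a log2 fold change of 3.13 ± 0.26 (adjusted p = 0.000134). Serpinb9, the inhibitor of granzyme B, fell with 38.4, 27.05 and 33.7 CPM at 72 h and 218, 211, 247 and 151 CPM at 24 h, a log2 fold change of -2.41 ± 0.17 (adjusted p = 7.35e-05). Prf1, perforin, was at 2.57, 4.18 and 2.98 CPM at 72 h and 1.46, 2.14, 0 and 1.202 CPM at 24 h (log2 fold change 0.81, adjusted p = 0.0438) and lost the call when any 1 of control replicates 1 and 3 and IL-33 replicates 1 and 4 was left out (0.66 to 0.91). Gzma had 2.72, 3.07 and 1.06 CPM at 72 h and 1.07, 0.965, 0.0986 and 0 CPM at 24 h (adjusted p = 0.206). Gzmk had 0.0601 CPM in control replicate 3 and no count in the other 6 libraries. Of 11 ILC1 and NK cell markers, 5 were higher and 2 lower, and the 14 genes of the list summed to 14.6 to 20.9 CPM in the 3 control libraries and 6.32 to 19.95 CPM in the 4 IL-33 libraries. Their part in the granzyme result was not tested.

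Of 19 genes of eicosanoid synthesis and reception, 8 were higher and 3 lower (median 0.46). Large and consistent were 3 of the rises (1 when scaled by library size alone). Ptges, the prostaglandin E synthase, had 91.1, 43.5 and 118 CPM at 72 h and 9.14, 10.9, 5.82 and 16.1 CPM at 24 h, a log2 fold change of 3.14 ± 0.22 (adjusted p = 7.35e-05). It stood at 11.95 to 16.8 CPM in Blimp-1-deficient cells, which overlaps the range of the IL-33 libraries. Ptger3, a receptor of prostaglandin E2, had 5.37, 6.41 and 5.03 CPM at 72 h and 0.418, 0.351, 1.68 and 0.569 CPM at 24 h, a log2 fold change of 3.56 ± 0.24 (adjusted p = 6.32e-05). Alox5, the leukotriene synthesis enzyme, had 122, 85.3 and 127 CPM at 72 h and 23.1, 29.4, 17.3 and 30.3 CPM at 24 h, a log2 fold change of 2.19 ± 0.11 (adjusted p = 2.23e-05). Its level in unstimulated cells was 333 to 406 CPM, above all controls. Ptgs1 had 2.11, 4.46 and 3.699 CPM at 72 h and 0.657, 0.731, 1.68 and 0.696 CPM at 24 h (log2 fold change 2.08, adjusted p = 0.00136) and stayed under the level limit. Hpgds, the prostaglandin D synthase of type 2 cells, did not pass the test (log2 fold change 0.75, adjusted p = 0.0618), and Ptgdr2 was too low to be tested.

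Of 16 BCL-2 family genes, 6 were higher (3 without control replicate 1) and 2 lower. The pro-apoptotic members Bok (6.96, 6.69 and 6.702 CPM at 72 h and 0.687, 0.907, 2.96 and 0.885 CPM at 24 h) and Pmaip1, which encodes NOXA (27.5, 17.8 and 28.04 CPM at 72 h and 5.34, 4.48, 2.96 and 5.22 CPM at 24 h), were large and consistent, with log2 fold changes of 3.06 and 2.49 (adjusted p = 5.01e-05 and 1.06e-05). Neither was large and consistent when scaled by library size alone. Bcl2l11, which encodes BIM, rose by 0.66 (0.47 without control replicate 1, which did not pass) and Bcl2l1, which encodes BCL-XL, fell by 0.48 on the log2 scale. Bcl2 and Mcl1 did not pass the test (adjusted p = 0.0517 and 0.391).

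Tph1, the enzyme of serotonin synthesis, was the large and consistent rise among 13 neuropeptide and neurotransmitter genes tested, though not when scaled by library size alone. Of the 13, 4 were higher (2 without IL-33 replicate 1) and 4 lower, against 22.6% and 20.3% of all genes tested. Tph1 had 589, 404 and 746 CPM at 72 h and 119, 148, 123 and 222 CPM at 24 h, a log2 fold change of 2.05 ± 0.24 (adjusted p = 0.000532). Its level was 16.2 to 21.3 CPM in unstimulated cells and 491 to 546 CPM in Blimp-1-deficient cells. Nmur1, the neuromedin U receptor, had 161, 150 and 188 CPM at 72 h and 111, 106, 80.7 and 108 CPM at 24 h (log2 fold change 0.70, adjusted p = 0.00044), and Calca, which encodes CGRP, had 74.4, 42.4 and 108 CPM at 72 h and 54.3, 40.7, 50.8 and 71.4 CPM at 24 h (log2 fold change 0.74, adjusted p = 0.0345). The call for Calca was lost without control replicate 3 (0.45), IL-33 replicate 1 (0.72) or IL-33 replicate 2 (0.58). Vipr2 (log2 fold change -0.17, adjusted p = 0.302) did not pass the test.

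In MHC class II presentation, 6 of 15 genes were higher and 4 lower (1 to 3 higher without control replicate 1, control replicate 3 or IL-33 replicate 2), and the large members went in both directions. Cd74, the invariant chain, had 8.9, 21.2 and 5.93 CPM at 72 h and 43.1, 33.9, 32.05 and 30.6 CPM at 24 h, a log2 fold change of -2.26 ± 0.21 (adjusted p = 0.000219). H2-Aa had 0.6803, 1.39 and 0.913 CPM at 72 h and 5.703, 6.17, 11.1 and 3.73 CPM at 24 h, a log2 fold change of -2.68 ± 0.29 (adjusted p = 0.000423). Its partner H2-Ab1 had 5.29, 8.92 and 7.33 CPM at 72 h and 11.1, 8.83, 11.1 and 9.201 CPM at 24 h (log2 fold change -0.60, adjusted p = 0.0307) and overlapped between the groups, and it did not pass the test without control replicate 1 (-0.39), IL-33 replicate 1 (-0.50) or IL-33 replicate 2 (-0.65). Ciita, the class II transactivator, did not pass the test (log2 fold change 0.13, adjusted p = 0.725). The endosomal protease Lgmn rose, with 136, 98.7 and 139.6 CPM at 72 h and 30.6, 32.1, 39.7 and 27.8 CPM at 24 h, a log2 fold change of 2.21 ± 0.07 (adjusted p = 3.01e-06).

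**Figure D5:**
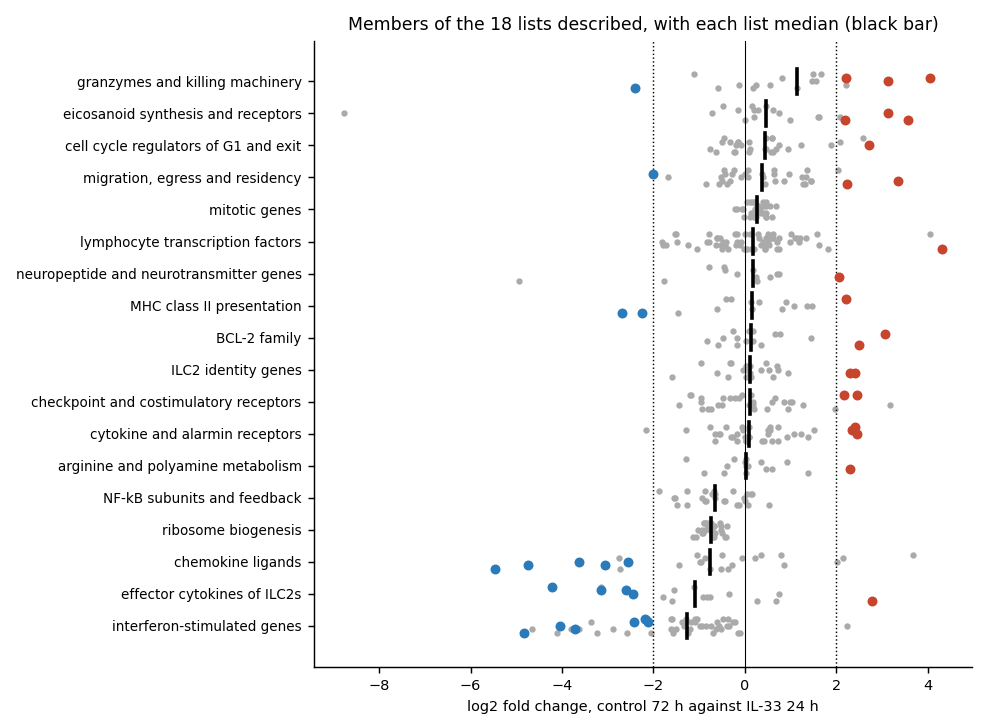
Log2 fold changes of the tested members of 18 gene lists (points, with red and blue for large and consistent genes) and the median of each list (black bars), ordered by median. The medians run from -1.27 for interferon-stimulated genes to 1.14 for granzymes and killing machinery, and all 30 ribosome biogenesis genes lie left of 0.

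Among large and consistent protein-coding genes, the largest fall was that of Lad1 (ENSMUSG00000041782.14, chromosome 1, 135818598 to 135833342, plus strand), which encodes ladinin, a filament-anchoring protein of epithelia. It had 0.0278, 0.279 and 0.0961 CPM at 72 h and 4.001, 5.06, 3.55 and 6.67 CPM at 24 h, a log2 fold change of -6.29 ± 0.46 (adjusted p = 8.50e-05). It had 0.0752 to 0.219 CPM in unstimulated cells. Hbb-bt, a beta globin with 56.6% of its 75-base stretches also found elsewhere, above all in Hbb-bs, had 0.2499, 0.836 and 0.661 CPM at 72 h and 11.9, 15.4, 6.902 and 17.2 CPM at 24 h (log2 fold change -4.97, adjusted p = 9.34e-05). The other haemoglobin gene tested, Hba-a1, did not pass the test (log2 fold change 0.86, adjusted p = 0.157). The 5 haemoglobin genes summed to 1.03, 12.3 and 1.48 CPM at 72 h and 7.69 to 17.8 CPM at 24 h, so that control replicate 2 lay within the 24 h range. Several other large falls were in genes of neurons and glia. Slc1a2, a glutamate transporter, had 0.125, 1.67 and 0.2402 CPM at 72 h and 10.8, 13.7, 1105 and 14.04 CPM at 24 h, a log2 fold change of -6.08 ± 0.28 (adjusted p = 1.58e-05). Shank1 (0.139, 3.904 and 0.264 CPM at 72 h and 8.09, 9.57, 792 and 9.86 CPM at 24 h), Snap25 (0.2499, 0.836 and 0.2402 CPM at 72 h and 4.93, 6.61, 548 and 8.22 CPM at 24 h) and Camk2a (0.278, 0.836 and 0.697 CPM at 72 h and 6.21, 8.69, 670.2 and 9.74 CPM at 24 h), genes of synapses, had log2 fold changes of -5.45, -4.72 and -4.03. In each of these 4 genes IL-33 replicate 3, which was not in the fit, was far above the other libraries, and unstimulated libraries, at 15.3 to 29.4, 11.3 to 18.98, 8.78 to 13.2 and 11.2 to 15.3 CPM, were above IL-33 replicates 1, 2 and 4. All 8 libraries of the stimulation experiment lay above all 6 of the Blimp-1 experiment for these 4 genes. Of 20 neuron and glia genes, assembled once the values had been seen, 18 were lower and 9 were large and consistent, and replicate 3 was the highest IL-33 library for all 20. Since these genes were gathered with their values known, nothing is read from the counts. With replicate 3 in the fit, none of the 20 passed the test. Other cells or RNA as a part of these falls was not tested.

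Of the 13 mitochondrially encoded genes, 8 were lower at 72 h and 2 higher (median log2 fold change -0.268), and mt-Co3, mt-Co2 and mt-Atp6 were large and consistent. mt-Co3, a cytochrome oxidase subunit, had 1.71, 2.23 and 1.31 CPM at 72 h and 32.1, 32.5, 36.6 and 33.5 CPM at 24 h (log2 fold change -4.42, adjusted p = 2.65e-06), mt-Co2 had 2.42, 2.23 and 2.47 CPM at 72 h and 18.5, 17.9, 24.3 and 19.4 CPM at 24 h and mt-Atp6 had 2.03, 1.67 and 1.32 CPM at 72 h and 15.1, 19.6, 34.6 and 20.2 CPM at 24 h. In unstimulated cells mt-Co3 was at 30.1 to 37.7 CPM and in Blimp-1-deficient cells at 0.843 to 1.34 CPM. These 3 genes share 99.5% to 99.9% of their 75-base stretches with nuclear copies, and 4 such copies, Gm28437, Gm28439, Gm28661 and Gm29216, also fell, with log2 fold changes from -3.99 to -2.58. They summed to 5.23, 6.13 and 5.93 CPM at 72 h and 37.3, 39.3, 48.4 and 102 CPM at 24 h. The 13 mitochondrially encoded genes together stood at 12140 to 16550 CPM at 72 h and 11370 to 12350 CPM at 24 h. How reads with several equal positions were treated in the 2 experiments is not stated, so the levels of these mitochondrial genes and copies are uncertain.

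Gsn, the actin-severing protein gelsolin, had 344, 239 and 321 CPM at 72 h and 31.02, 31.7, 41.6 and 36.7 CPM at 24 h, with a log2 fold change of 3.34. Mt1, metallothionein, had 29.5, 35.7 and 22.4 CPM at 72 h and 3.34, 3.71, 3.55 and 3.23 CPM at 24 h (log2 fold change 2.94). Rab31 had 99.5, 87.3 and 112 CPM at 72 h and 11.4, 10.2, 6.01 and 16.8 CPM at 24 h (log2 fold change 3.06). The lipogenic genes Scd1 (28.7, 51.03 and 41.2 CPM at 72 h and 6.33, 6.202, 19.9 and 6.703 CPM at 24 h) and Me1 (47, 37.9 and 49.3 CPM at 72 h and 6.45, 6.61, 12.4 and 8.76 CPM at 24 h) had log2 fold changes of 2.46 and 2.75. Car8 and Anpep had log2 fold changes of 2.32 and 2.12. Arl4c, a small GTPase, had 273, 254 and 314 CPM at 72 h and 46.1, 51.7, 74.5 and 48 CPM at 24 h, and its level in unstimulated cells was 175 to 207 CPM, so that the IL-33 libraries were lowest. Among the lower genes, Mir155hg, the host transcript of miR-155, had 1.62, 3.35 and 2.102 CPM at 72 h and 14.9, 11.3, 11.8 and 8.95 CPM at 24 h (log2 fold change -2.63), the serine protease Hpn had 3.19, 2.79 and 2.39 CPM at 72 h and 23.1, 19.7, 16.6 and 21.1 CPM at 24 h (log2 fold change -2.92), and Hamp, hepcidin, had 1.65, 0.837 and 0.865 CPM at 72 h and 9.11, 11.6, 8.28 and 9.96 CPM at 24 h (log2 fold change -3.01). These 11 genes were chosen after their values were seen. Of the 161 large and consistent genes, 42 belong to at least 1 of 38 gene lists and 119 to none.

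Across all 14 libraries, all 6 of the Blimp-1 experiment lay above all 8 of the stimulation experiment in 71 of the 112 higher genes, and below them in 16 of the 49 lower genes. Of all 15042 genes tested, 4.45% lay above and 4.54% below in this way. The members were chosen for not overlapping among 7 of these 14 libraries, so nothing is read from their counts. Examples of such higher genes are Pla2g7, Csn1s1, Tph1, Ccr1 and Tnfrsf8. In others, such as Ctse, Ly6c2 and Ptges, the Blimp-1-deficient libraries lay at or near the IL-33 libraries.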

How the data were processed

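RNA was measured in 14 libraries of sorted mouse lung ILC2s (SMART-seq v4 with 75-base paired-end reads). Per the study methods, reads were trimmed (cutadapt), aligned to GRCm38 (HISAT2) and counted per gene (Subread) by the authors, and processing notes also list mm10, Bowtie2 and DESeq2. Strand setting and annotation version are not given in the sources used here, so reads of overlapping or antisense genes cannot be told apart. The deposited count tables hold raw counts per gene symbol, 1 table for each experiment, joined here by gene ID over 53278 genes. The TPM tables deposited by the authors were normalised within each experiment and served only as an alternative.

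Counts were tested with edgeR 4.0.16 (TMM, filterByExpr, quasi-likelihood F test, Benjamini-Hochberg adjustment over 15866 genes) in R 4.3.3, with 2 controls against 3 IL-33 libraries and no covariate. Genes on X and Y (563) and without a known chromosome (261) stayed in the fit and out of every count, which left 15042. Chromosomes and positions came from GENCODE M21 (GRCm38), which matched 49721 symbols. Standard errors are the log2 fold change over the root of F, and CPM are TMM-scaled over all 14 libraries, without a prior count. "Large and consistent" means an adjusted p under 0.05, an absolute log2 fold change of at least 2, a mean of at least 5 CPM in the higher group and no overlap among the 7 libraries. Shared 75-base stretches were counted between annotated transcripts.

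Named are Il9, Il13, Il5 and Mki67, the 15 largest rises and 15 largest falls among large and consistent protein-coding genes, and, in each of 18 lists, the first 4 members and up to 6 large and consistent ones. Some genes that this rule names are not reported here. Genes of the matrix, neuron and mitochondrial lists and those said to be so were chosen after their values were seen. The comparison, its libraries and the gene lists were chosen with earlier results of these data known. The libraries of a group came from separate mice by the labels. Figure legends of the study speak of pooled animals. The fit was tested on simulated counts for 15866 genes, 200 of them changed: edgeR made 176 calls, of which 7.39% were false, and recovered 62.7%, 85.1% and 97% of genes changed by 1, 2 and 3 on the log2 scale. On the same counts DESeq2 made 194 calls, of which 13.9% were false. The simulation changed far fewer genes than the 3394 higher and 3052 lower genes called here, and it held no difference between experiments. Its rates therefore cannot be carried over to the comparison itself. Alternatives were DESeq2 1.42.0, limma 3.58.1 on log2(TPM + 1) and log2(TPM + 0.1) for genes with a mean of at least 1 TPM, other scalings and filters, other sets of libraries, robust dispersion and a test against a log2 fold change of 1. Figures were drawn with matplotlib 3.10.9.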

Additional observations from a re-analysis of the deposited data

Results flagged for a closer look

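In the 4 IL-33 libraries, 20 of 117 named genes had a library far from the other 3 by Dixon's test, which chance gives for about 1 in 20. In 13 genes replicate 3 was high: Slc1a2 (1105 CPM), Shank1 (792.4 CPM), Camk2a (670.2 CPM), Snap25 (548.1 CPM), S1pr1 (62.42 CPM), Kitl (12.52 CPM), Spp1 (7.593 CPM), Tfcp2l1 (3.057 CPM), Sncg (2.958 CPM), Bok (2.958 CPM), Cdkn1c (2.268 CPM), Ptgs1 (1.676 CPM) and Ptger3 (1.676 CPM). In 5 genes replicate 3 was low: Gata3 (492.4 CPM), Nfkb1 (447.3 CPM), Nop56 (196.6 CPM), Fbl (92 CPM) and Nmur1 (80.66 CPM). Replicate 4 was low in the interferon-stimulated genes Gbp5 (14.04 CPM) and Tgtp1 (2.909 CPM). Replicate 3 was not in the test, and replicate 4 was.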

How the results depend on the processing

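All 161 large and consistent genes kept their direction in every alternative run on counts, as did the 154 of them that were measured in the TPM alternatives. They were chosen for no overlap among the 7 libraries, so their direction could hardly change and nothing is read from it. Of the 161, 109 were past the adjusted p with IL-33 replicate 3 added and 115 with all 7 libraries. With the replicate number as a block 11 were, and with DESeq2 all 161. Large and consistent genes numbered 104 to 120 higher and 41 to 61 lower when each of the 5 libraries was left out in turn, and 137 and 55 with the overlap rule on these 5 alone, an alternative chosen after seeing the data. Scaling by library size alone gave 53 higher genes, limma on log2(TPM + 1) gave 24 lower, IL-33 replicate 3 added gave 22 lower and all 7 libraries gave 30 lower. All genes past the adjusted p were 2473 to 3382 higher and 1986 to 2889 lower with 1 library left out (1999 lower without control replicate 3 and 1986 without IL-33 replicate 2). They were 1426 and 1141 with control replicate 2 added, 675 and 233 with IL-33 replicate 3 added, 512 and 279 with all 7, and 483 and 337 when tested against a log2 fold change of 1. The TPM alternatives gave 1676 lower with a pseudocount of 0.1 and 1669 with 1. The cause was not tested. With DESeq2 all 4 counts were within 1.5 times those of edgeR. Higher genes were 52.7% of those past the threshold, 65.9% and 65.5% in the TPM alternatives, 74.3% with IL-33 replicate 3 added, 64.7% with all 7 and 22.2% with the block.

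The replicate numbers do not pair the samples, which come from separate mice: correlations of same-numbered deviations were 0.0741, -0.213 and -0.202 for replicates 1, 2 and 3. With all 7 libraries and the replicate number as a block, 6 genes were higher and 21 lower past the adjusted p, and 6 and 21 were large and consistent. In that fit the log2 fold changes were 0.08 for Mki67, -0.06 for Cdkn1b, -0.15 for Cdkn1c, -0.53 for Ciita and -0.05 for Mcl1, of the opposite sign to those given above.

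Other genes that changed sign were these. Mki67 was at 0.02 by library size, 0.03 without a filter, 0.08 in both TPM alternatives and with all 7 libraries, 0.19 with IL-33 replicate 3 added, and -0.16 to 0.14 with 1 library left out. Control replicate 2 added gave -0.05 for Il2ra, -0.01 for Rora, -0.13 for Ciita and -0.09 for Mcl1. IL-33 replicate 3 added gave -0.11 for Cdkn1c. All 7 libraries gave -0.37 for Cdkn1c, -0.26 for Ciita and -0.06 for Mcl1. With 1 library left out, the range was -0.08 to 0.13 for Il2ra, -0.1 to 0.31 for Cdkn1b and -0.16 to 0.37 for Ciita. The Mcl1 range was -0.02 to 0.21.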

Other observations

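The counts below stand beside 22.6% of all genes tested that were higher and 20.3% that were lower. Of 22 glycolysis genes tested, 15 were lower and 3 higher at 72 h (median log2 fold change -0.35), with Hk2 at -0.57, Pfkl at -0.65 and Ldha at -0.35, while the glucose transporter Slc2a3 was at 0.85. Of 30 genes of the unfolded protein response and secretion, 18 were lower and 4 higher (median -0.31), with the chaperones Hspa5 at -0.59 and Calr at -0.62, and Xbp1 at 0.54. Of 13 TNF superfamily ligands, 7 were lower and 2 higher, with Tnf at -1.78 and Tnfsf15 at -1.97. Of 20 lipid uptake and storage genes, 10 were higher and 1 lower (median 0.31), with the cholesterol exporters Abca1 at 2.78 and Abcg1 at 1.84 and the carnitine palmitoyltransferase Cpt1a at 1.54. None of the 20, Abca1 included, was large and consistent. Of 28 cholesterol and fatty acid synthesis genes, 7 were higher and 4 lower, with Scd2 at 1.65. These genes were chosen after their values were seen.

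The counts of this paragraph, too, stand beside 22.6% higher and 20.3% lower over all genes tested. Among AP-1 and immediate early genes, 10 of 30 were higher and 5 lower, among STAT targets and SOCS genes 5 of 19 each way, with Socs3 at 1.64. Amino acid genes were higher in 7 and lower in 10 of 22, and hypoxia genes in 5 and 5 of 20. Oxidative phosphorylation genes were higher in 1 and lower in 8 of 53, but in 6 and 7 when scaled by library size alone and in 10 and 7 with limma on log2(TPM + 1). ILC3 markers were lower in 6 of 9 and higher in none (median -1.47), and ILC1 and NK cell markers were higher in 5 and lower in 2 of 11, with log2 fold changes from -4.22 (Ifng) to 4.04 (Eomes, at 2.51 to 2.71 CPM at 72 h and at 0.149, 0.263, 0 and 0.0632 CPM at 24 h). Of 13 general reference genes, 2 were lower and none higher (median -0.0418).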
